A study of Caenorhabditis elegans with 2 samples.

Results

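The actin genes of Caenorhabditis elegans, act-1, act-2, act-3, act-4 and act-5, were examined for occupancy by FOS-1, the worm's member of the Fos family of leucine zipper transcription factors. They were taken by name, as 5 of the 19973 protein-coding genes of the nuclear chromosomes in the Ensembl annotation of WBcel235. Every call that touched a gene span or the 5 kb to either side of it was counted. Chromatin immunoprecipitation with sequencing (ChIP-seq) had been done on whole L2 larvae of mixed sex from strain OP304, which carries the allele unc-119(ed3) on chromosome III and the insertion wgIs304, a transgene that expresses FOS-1 fused to eGFP. The labels give 2 biological replicates of this 1 group, so no contrast between conditions exists, and the antibody field names fos-1 while the description speaks of the eGFP fusion. The chromatin came from all tissues of the larva together, and the tagged protein came from an inserted transgene.

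Actin monomers assemble into the filaments that give cells their shape, drive their movement and, with myosin, contract muscle. In the worm, act-1, act-2 and act-3 lie side by side on chromosome V and, with act-4, are known for their roles in muscle and in the cytoskeleton of other cells, while act-5 encodes the actin of the microvilli of the intestine and the excretory cell. Fos proteins bind DNA as dimers, with Jun for example, at the AP-1 site, TGACTCA or its reverse complement TGAGTCA. Factors of the GATA family such as ELT-2, which is known for its part in intestinal gene expression, bind the letters GATA preceded by A or T and followed by A or G, searched here on both strands. Transcripts of act-1, act-2 and act-3 are known to receive a trans-spliced leader, so an annotated start need not mark where transcription begins.

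The strictest deposited list held 7446 calls, here named IDR peaks, that passed a threshold on the irreproducible discovery rate (IDR), which scores how well the ranks of a call match between replicates. Relaxed lists held 28259 calls for the pooled data, 29339 for replicate 1 and 28938 for replicate 2. Each call has a signal value from the authors' peak caller, which has no unit and is not normalized between lists, so replicates are compared by rank. The IDR peaks were the 7446 pooled calls of highest signal, down to a signal value of 33.9, and 7379 of them overlapped a call of both replicates. The read depth is unknown, and no interval can be given for a signal value.

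Across the actin windows lay 10 distinct IDR peaks, 7 at the act-1, act-2 and act-3 cluster, 3 at act-5 and 0 at act-4. Thus 4 of the 5 actin genes had an IDR peak in their window, against 57.6% of all protein-coding genes, and with 5 genes, of which 3 share peaks, this count alone sets them little apart. The strong peaks stood upstream of act-2, act-1 and act-5, and the strongest of the act-5 window lay at the start of shpk-1. The act-4 window held relaxed calls only, spread over and around the gene.

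The sequences under the 3 peaks that lay nearest upstream of an actin start are shown because they carry the AP-1, GATA and CArG letters described below. All are read from the plus strand of WBcel235, the build with ce11 coordinates, and capitals mark matches to any of the patterns searched: a GATA site, AP-1 letters and a CArG box at act-2, 5 GATA sites and AP-1 letters at act-1, and a GATA site and GAGAGAG on the minus strand at act-5.
Peak upstream of act-2, chrV:11078446-11078707: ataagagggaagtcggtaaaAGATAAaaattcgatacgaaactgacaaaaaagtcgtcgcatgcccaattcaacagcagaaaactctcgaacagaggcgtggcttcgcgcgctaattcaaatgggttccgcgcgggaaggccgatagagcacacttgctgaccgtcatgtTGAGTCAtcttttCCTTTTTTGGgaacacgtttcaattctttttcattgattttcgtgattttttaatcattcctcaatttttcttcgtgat
Peak upstream of act-1, chrV:11080717-11080945: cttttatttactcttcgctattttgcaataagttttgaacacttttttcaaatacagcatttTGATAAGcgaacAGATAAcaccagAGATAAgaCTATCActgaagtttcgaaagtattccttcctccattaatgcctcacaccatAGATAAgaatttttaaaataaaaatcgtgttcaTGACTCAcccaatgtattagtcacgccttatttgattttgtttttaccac
Peak upstream of act-5, chrIII:13606283-13606383: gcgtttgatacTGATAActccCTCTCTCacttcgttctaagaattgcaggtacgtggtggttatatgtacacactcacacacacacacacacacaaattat

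The act-2 gene (WBGene00000064) runs on the minus strand of chromosome V from 11076777 to 11078154. The strongest peak of all the actin windows had its summit 428 bp upstream of its annotated start, at 11078582, between protein-coding genes and inside the non-coding RNA genes T04C12.18 and T04C12.24. Its pooled signal value was 196.3, rank 210 among IDR peaks. In replicate 1 the signal value was 135.1 at rank 212, and in replicate 2 it was 61.5 at rank 251. The summits of the replicates lay within 3 bp of the pooled summit. A second IDR peak, of signal value 61.3 and rank 3993, had its summit at 11076633, downstream of the 3' end of act-2 and inside the non-coding RNA gene T04C12.14. It had rank 3868 in replicate 1 and 4052 in replicate 2.

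The act-1 gene (WBGene00000063) points away from act-2 on the plus strand, from 11081052 to 11082415, with 2897 bp between the annotated starts. Its peak had the summit 213 bp upstream of the start, at 11080839, and a pooled signal value of 183.6 at rank 278. The signal value was 125.2 in replicate 1, at rank 292, and 56.8 in replicate 2, at rank 323. The summits of the act-2 and act-1 peaks lay 2257 bp apart, and between them the pooled list held 1 further call, of signal value 7.52. A pair of separate strong peaks thus occupied the shared upstream region, each nearer to one of the starts.

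The act-3 gene (WBGene00000065), on the minus strand from 11071690 to 11074498, has 3 annotated starts and no IDR summit in the promoter window, which runs from 1000 bp upstream to 250 bp downstream of a start. Its nearest IDR peak had a signal value of 56.9, at rank 4406, and a summit 1271 bp upstream of the outermost start, which a promoter window of 2000 bp upstream would include, at 11075769 in the non-coding RNA genes T04C12.15 and T04C12.21. That peak had rank 4571 in replicate 1 and rank 3834 in replicate 2. The strong act-2 peak also falls in the 5 kb around act-3, so a count by window credits it to act-1, act-2 and act-3 alike. Inside the act-3 span the pooled list held 3 summits, the highest at a signal value of 15.2 and rank 13284.

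The outer 3 IDR peaks of the cluster lay nearest to the starts of neighbouring genes. The peak at 11069539, with a signal value of 119.0 at rank 1081, lay 181 bp upstream of T04C12.8, and that at 11070530, with 41.7 at rank 6176, lay 1172 bp upstream of the same gene. Beyond act-1, the peak at 11087352 had a signal value of 35.5 at rank 7174, close to the end of the IDR list, and lay 596 bp upstream of Y42A5A.1. This peak ranked 7716 in replicate 2 by its stronger overlapping call, whose summit lay 177 bp away. Another overlapping call of replicate 2, with its summit at 11087396, had a signal value of 6.5 at rank 12465. The peak at 11070530 ranked 7841 in replicate 2, so both peaks were outside the 7446 strongest calls of that replicate. The other 8 actin peaks were among the 7446 strongest of both replicates, where 79.5% of all IDR peaks were.

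The act-5 gene (WBGene00000067) lies on the minus strand of chromosome III from 13604412 to 13606066 and shares its upstream region of 1953 bp with shpk-1, named for sedoheptulokinase, which points the other way. The peak nearest to act-5 had its summit 276 bp upstream of the start, at 13606342, and a signal value of 141.1 at rank 655. Its signal value was 104.7 in replicate 1, at rank 528, and 36.9 in replicate 2, at rank 1263. Its ranks in the replicates lay further apart than those of the peaks upstream of act-2 and act-1, and its replicate summits lay 39 bp apart. The middle peak, with the summit 1007 bp upstream of act-5 at 13607073, had a signal value of 65.0 at rank 3674. Its stronger overlapping call in replicate 1, of rank 2552, had the summit 187 bp nearer to act-5. Another replicate 1 call, with its summit at 13607086, had a signal value of 31.6 at rank 5703. In replicate 2 the middle peak had rank 2568.

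The strongest peak of the act-5 window belonged by distance to shpk-1. Its summit at 13608054 lay 34 bp inside the 5' UTR of shpk-1 and 1988 bp upstream of act-5, with a signal value of 178.2 at rank 308. It had rank 315 in replicate 1 and 442 in replicate 2. Downstream of the act-5 start only relaxed calls were found. Of these, 3 had summits in the gene, with signal values up to 16.5, and 1 beyond the 3' end had a signal value of 27.6 at rank 8766.

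**Figure D1:**
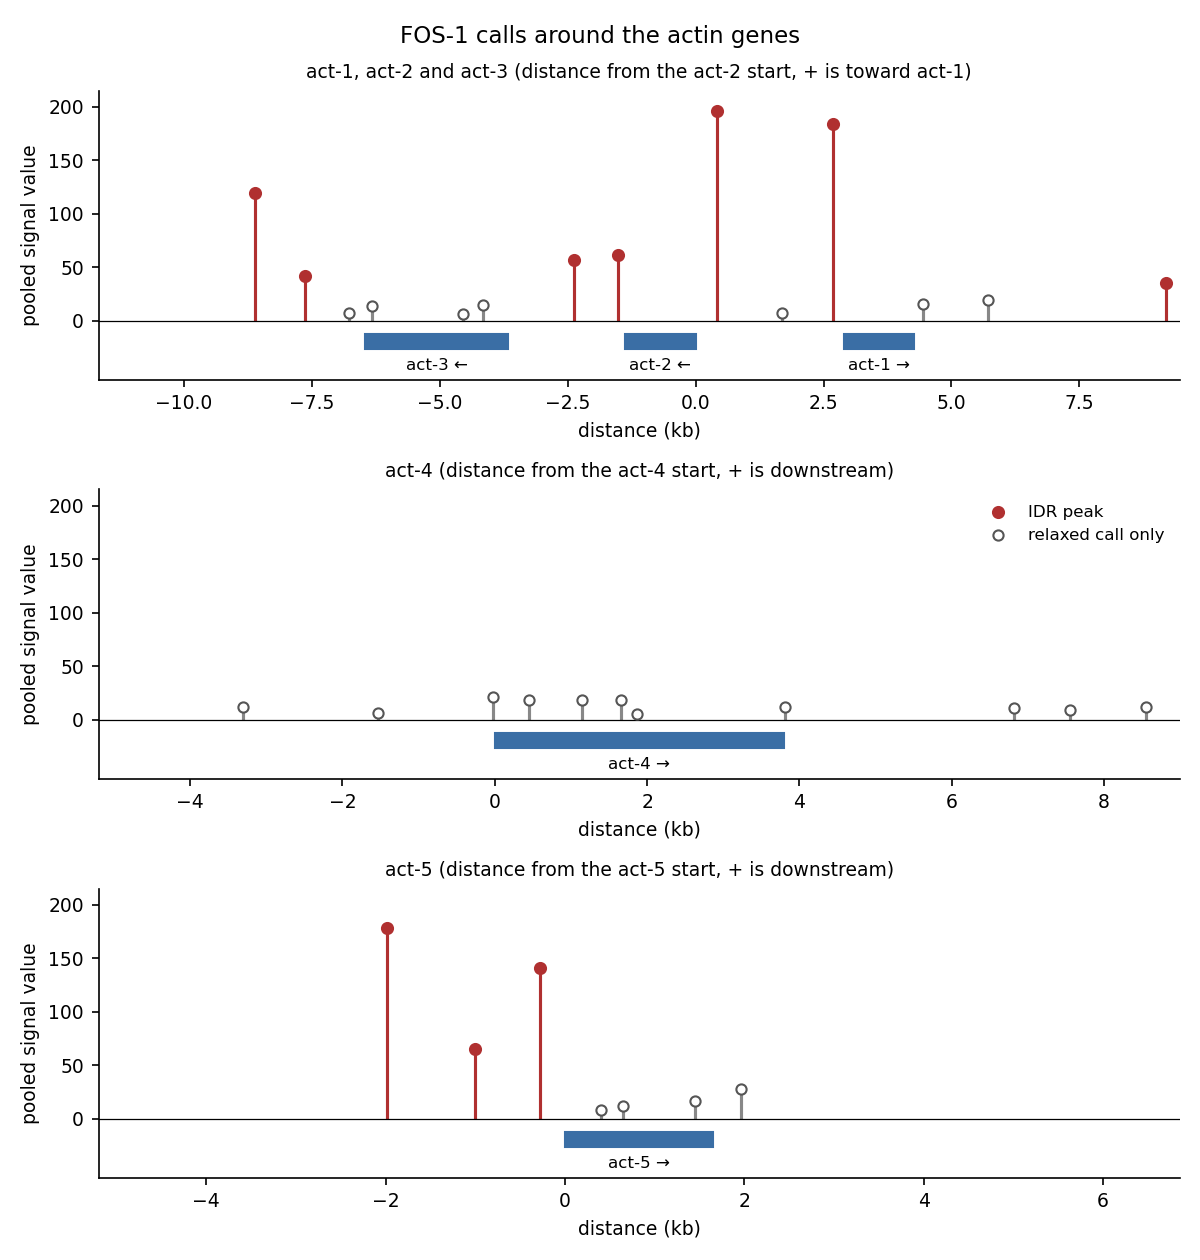
Signal value of each pooled call (vertical axis, no unit) against the distance of its summit in kb from the act-2 start, the act-4 start and the act-5 start, with gene spans as blue boxes and arrows for their direction. Filled red points are IDR peaks and open points are relaxed calls only. The peaks upstream of act-2 (196.3), act-1 (183.6) and act-5 (141.1) stand out, and no act-4 call exceeds 21.6. The tallest point of the act-5 panel (178.2) is nearest to the start of shpk-1, and a cluster peak of 119.0 is nearest to that of T04C12.8.

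The act-4 gene (WBGene00000066) lies on the plus strand of chromosome X from 4960621 to 4964413, with a second annotated start at 4962875. Its window held 11 pooled relaxed calls, with signal values from 5.93 to 21.6, and none of them reached the IDR list. The strongest, of rank 10450, had its summit 25 bp upstream of the outer start, at 4960596. It was found in replicate 1, with a signal value of 20.4 at rank 8478, and no call of replicate 2 overlapped it. The call 452 bp downstream of the start, with a signal value of 18.2, was likewise matched in replicate 1 only.

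Inside the act-4 span the pooled list held 4 summits, at signal values up to 18.9, all in introns. The highest call of replicate 1 in the window had a signal value of 22.0 at rank 7927, in the span of act-4. In replicate 2 the highest had 8.72 at rank 9409, with its summit at 4964520, beyond the 3' end of act-4 in a coding exon of M03F4.6. The highest replicate 2 call with its summit in the act-4 span had 7.54 at rank 10797. Of the 11 act-4 calls, 7 overlapped calls of both replicates, as did 10193 of the 20813 pooled calls below the IDR threshold, or 49.0%. Among these 7, the calls with summits at 4962278 and 4962489 were matched to the same replicate calls and are not separate support. Others of the 7 lay nearest to the starts of neighbouring genes. The nearest IDR peaks lay 7084 bp beyond the 3' end, 756 bp upstream of calu-1, named for calumenin, with a signal value of 53.3, and 54445 bp before the act-4 start, near K05B2.2.

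The 75 bases directly upstream of the annotated act-4 start are shown for comparison with the peaks above, since they hold the summit of its strongest relaxed call. None of the patterns searched is found in them, but the stretch is shorter than each of the peaks above. No count over the whole 344 bp of that call is given.
act-4 upstream, chrX:4960546-4960620: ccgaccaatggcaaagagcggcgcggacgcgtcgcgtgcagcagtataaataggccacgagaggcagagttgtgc

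Set against all protein-coding genes, the actin genes lay towards the high end in the density of relaxed calls and differed in the strength of the best one. The highest pooled signal value in the window was 196.3 for act-1, act-2 and act-3, a value that 3.22% of genes reached, and 178.2 for act-5, which 4.53% reached. For act-4 it was 21.6, which 65.6% of genes reached, and the median gene had 44.7. The call of 196.3 lay nearest to act-2, and act-1 and act-3 had it through overlapping windows. The call of 178.2 lay nearest to shpk-1, and the peak next to act-5 had 141.1. Relaxed calls per kb of window were 0.616 at act-1, 0.791 at act-2, 0.703 at act-3, 0.798 at act-4 and 0.601 at act-5, values that 10.7, 3.59, 6.41, 3.43 and 11.7% of genes reached. The act-4 window was the densest of the family, though barely above that of act-2, and the only one of the 5 without an IDR peak. These pooled calls include the IDR peaks. Part of the sequence of the cluster genes occurs more than once in the genome, as given below, which limits a comparison of densities. With at least 11 pooled calls and no IDR peak there were 47 genes, act-4 among them, or 0.235% of all, a description whose threshold was set by act-4 itself. On chromosome X, 64.1% of protein-coding genes had an IDR peak in the window.

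The relaxed lists gave less contrast. All 5 actin genes had a call in the pooled list, where 80.0% of protein-coding genes had one, in replicate 1 (81.3%) and in replicate 2 (88.5%). An IDR summit in the promoter window was found for act-1, act-2 and act-5, or 3 of 5, against 23.4% of all genes. Among the 4681 genes with such a summit, act-2 was in place 165 by signal value, act-1 in place 211 and act-5 in place 471. Each of these 3 promoter peaks was among the 744 IDR peaks of highest signal, as were those of 2.64% of all genes. By window, a peak of that strength lay near 4 of the 5 genes, act-3 through the act-2 peak, against 9.86% of all genes. The 3 windows of the cluster overlap and are not independent of each other.

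**Figure D2:**
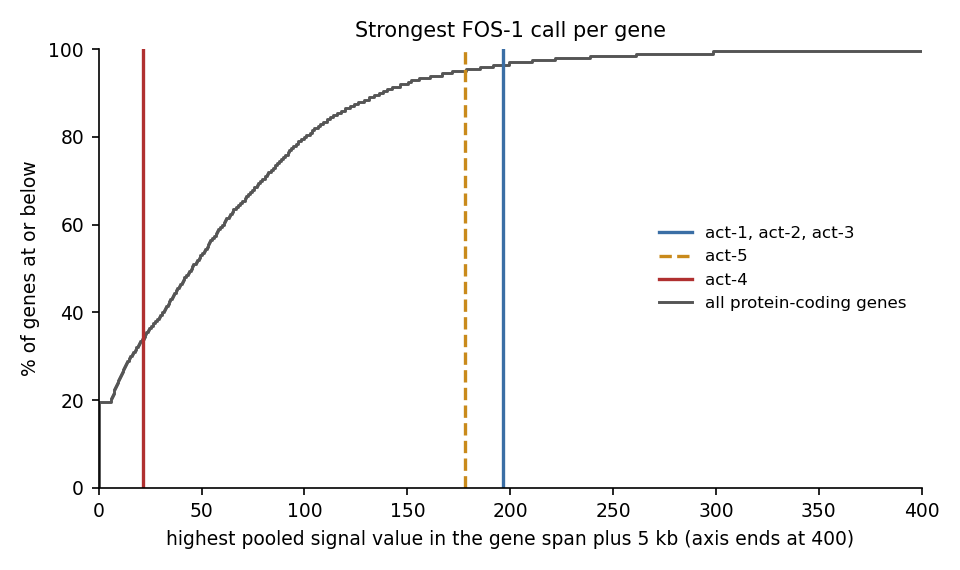
Share of protein-coding genes (vertical axis, %) whose highest pooled signal value in the gene span plus 5 kb is at or below the value on the horizontal axis (no unit), with a vertical line for each actin gene and 1 line for act-1, act-2 and act-3, which share a call. The lines at 196.3 and 178.2 lie in the upper tail, and the act-4 line at 21.6 lies below the median of 44.7. The call of 196.3 is nearest to act-2 and that of 178.2 is nearest to shpk-1.

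The order of the genes was the same in both replicates by the IDR peak nearest upstream of each start. For act-4, which has no such peak, the best relaxed call anywhere in its window was taken. The best calls upstream of act-2 and act-1 had ranks of 212 and 292 in replicate 1 and 251 and 323 in replicate 2, and that next to act-5 ranks of 528 and 1263. The peak upstream of act-3 had rank 4571 in replicate 1 and 3834 in replicate 2. The best call anywhere in the act-4 window had rank 7927 in replicate 1 and 9409 in replicate 2. The IDR peaks are the pooled calls of highest signal from these same replicates, and act-4 had none of them. A shared order of the peaks in both replicates, and a gap in rank between act-4 and the peaks, were thus largely set in advance. No conclusion is drawn from either. The design has 1 group with 2 replicates, so no test is given. The 10 actin peaks had a median ratio of replicate 1 signal to replicate 2 signal, taken from the strongest overlapping calls, of 2.22, against 2.19 over the 7379 IDR peaks with calls in both replicates.

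**Figure D3:**
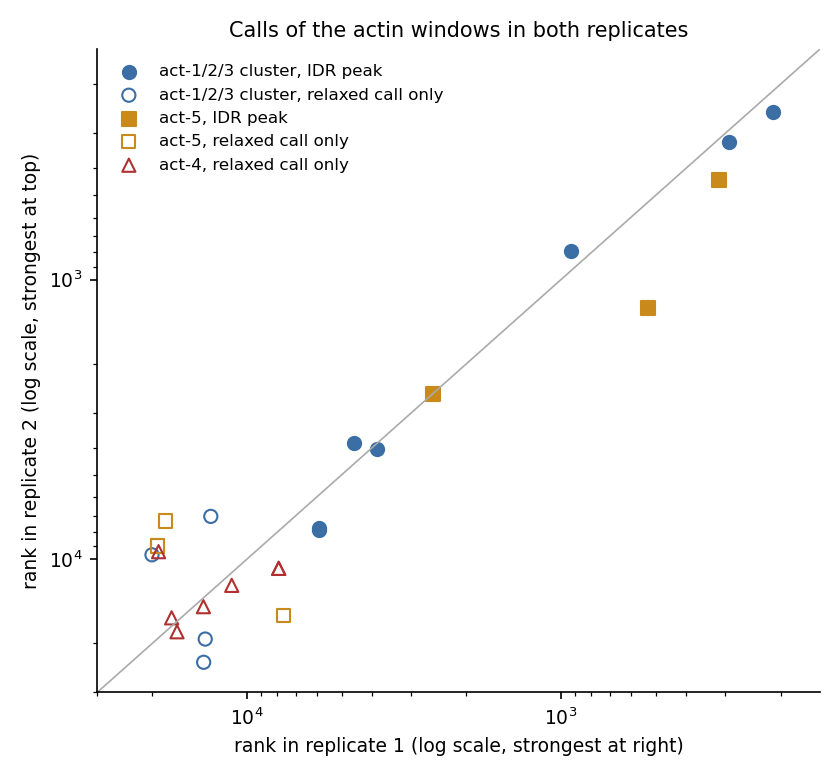
Rank in replicate 2 (vertical axis) against rank in replicate 1 (horizontal axis) for each pooled call of the actin windows that overlapped a call of both replicates, on log scales with the strongest ranks at the upper right and a grey line where ranks are equal. The 10 IDR peaks (filled), each placed by its strongest overlapping calls, run along the line up to ranks 212 and 251. No act-4 call (open triangles) ranks above 7927 in replicate 1 or 9409 in replicate 2.

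AP-1 letters were found only under the peaks upstream of act-2 and act-1. Within 50 bp of the summit, 1 of the 10 actin peaks had an AP-1 site, against 3.55% of all IDR peaks. It was TGAGTCA at 11078616 to 11078622, centred 37 bp from the summit of the act-2 peak. Over whole calls a second was found, TGACTCA at 11080896 to 11080902, centred 60 bp from the summit of the act-1 peak. In whole calls the count was 2 of 10, against 7.16% of all IDR peaks. Counts this small do not set the actin peaks apart. Both actin peaks with the site were those of the highest signal in the cluster. The 3 act-5 peaks had no AP-1 letters in the whole call.

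GATA letters were common at the actin peaks, as at IDR peaks in general. A GATA site on either strand lay within 50 bp of 7 of the 10 summits, against 52.9% of all IDR summits, and 6 of the 10 had at least 2 sites, against 24.1%. Over whole calls the count was 9 of 10, against 74.8%, and within 100 bp it was 8, against 66.7%, so the share with any site was little apart from that of all IDR peaks. The act-1 summit had 4 sites within 50 bp, and 1.09% of IDR summits had 4 or more. Each of the 3 act-5 peaks had at least 1, and that next to the gene had 2, of which one lies across the edge of the call. The extended site TGATAAG, which contains a GATA site, lay within 50 bp of 4 summits, against 22.8%, among them the peaks 1007 and 1988 bp upstream of act-5. No GATA site lay within 50 bp of the summits of the strong act-2 peak, of the peak upstream of act-3 or of that at 11070530.

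The windows of 2 peaks are shown because they hold pairs of GATA letters close to the summit, and that of the act-3 peak because it holds no pattern at all. Each is 101 bases of the plus strand centred on the summit, with the GATA letters in capitals where they occur.
Middle act-5 peak, chrIII:13607023-13607123: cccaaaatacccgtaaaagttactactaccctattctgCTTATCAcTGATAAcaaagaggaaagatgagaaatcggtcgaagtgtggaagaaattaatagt
Peak downstream of act-2, chrV:11076583-11076683: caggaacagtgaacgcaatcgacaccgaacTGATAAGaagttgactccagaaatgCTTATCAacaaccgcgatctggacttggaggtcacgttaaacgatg
Peak upstream of act-3, chrV:11075719-11075819: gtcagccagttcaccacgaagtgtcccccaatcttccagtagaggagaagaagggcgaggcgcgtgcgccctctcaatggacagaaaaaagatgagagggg

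The remaining patterns were rare or absent. The CArG box, the site of serum response factor, which is known to act on actin genes in other animals, lay in 1 whole call, as CCTTTTTTGG in the act-2 peak, against 1.30% of all IDR peaks. It was separated from the AP-1 letters by 6 bases, and its centre lay 51 bp from the summit. GAGAGAG lay within 50 bp of 1 summit, that next to act-5, against 9.83% of all. The letters TGACGTCA (CRE), GACGCAGA and CACGTG (E-box) were found near 0 of the 10 summits, against 0.819, 5.33 and 3.98% of all IDR summits. Of the 11 relaxed act-4 calls, 2 had a GATA site within 50 bp, against 27.6% of the 20813 pooled calls below the IDR threshold. The share of G and C in the 101 bases ran from 28.7 to 56.4% over the 10 actin summits, with a median of 40.6% over all IDR summits. These matches are letters in a window and do not show which factor was bound.

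The actin genes resemble each other so closely that reads from their coding parts can fit several of them. The coding sequences of act-1 and act-3 were identical over 1128 bp, act-2 matched act-1 at 96.2% of positions, act-4 matched it at 94.1%, and act-5 at 84.1%. Of all stretches of 36 bases in the act-1 span, 12.6% occurred once in the genome, against 64.6% for act-2, 58.3% for act-3, 94.7% for act-4 and 99.1% for act-5. The pooled list and replicate 1 held no summit inside the act-1 and act-2 spans, and replicate 2 held 1, in a coding exon of act-2, with a signal value of 6.7 at rank 12064. The treatment of reads with several matches is not given in the sources used here, so the scarcity of calls there cannot be read as lack of FOS-1. In each of the 10 IDR peaks 100% of such stretches occurred once. For the act-4 calls the share was 98.4% or more.

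Lists of other genes of the actin cytoskeleton, and of the intestinal brush border and terminal web, differed from each other. Of 57 genes in 9 lists, act-5 aside, 22 or 38.6% had an IDR summit in the promoter window, against 23.4% of all protein-coding genes. The Arp2/3 complex, which nucleates branched filaments, had 5 of 7, led by arx-6 (signal value 84.0), arx-4 (69.3) and arx-2 (51.0). Regulators of nucleation had 3 of 5, with wve-1, the WAVE gene, at 170.5, gex-3 at 106.3 and gex-2 at 61.9. Genes of monomer binding and filament turnover had 5 of 7, with cas-1 at 79.5, the profilin gene pfn-1 at 73.7 and unc-60, the cofilin gene, at 54.1. Of the capping genes, cap-1 had 253.4 at rank 71 and cap-2 had 153.4, and tmd-2 had no promoter peak. Formins had 2 of 6, frl-1 at 130.9 and inft-2 at 47.3. The name tmd-1 of the capping list matched no gene symbol.

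Genes of the intestinal brush border and terminal web, the layer that act-5 belongs to, had promoter peaks in 4 of 5 besides act-5, all but eps-8. This list also holds intermediate filament genes, so its share is not one of actin genes alone. The intermediate filament organizer gene ifo-1 had 206.3 at rank 169, erm-1, which encodes the ezrin-radixin-moesin protein of the apical membrane, had 173.4 at rank 337, and the intermediate filament gene ifb-2 had 108.4 at rank 1386. The lists of muscle filaments together had 1 of 19, the tropomyosin gene lev-11 with 39.7 at rank 6452, and tni-2 matched no gene symbol. Bundling and crosslinking genes had 0 of 5. In the wider window of 5 kb, 11 of the 19 muscle genes or 57.9% had an IDR peak, close to the 57.6% of all genes, and so did all 5 of the bundling genes. The lists are small, they were compiled with results of these data known, and the shares are given as a description without a test.

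**Figure D4:**
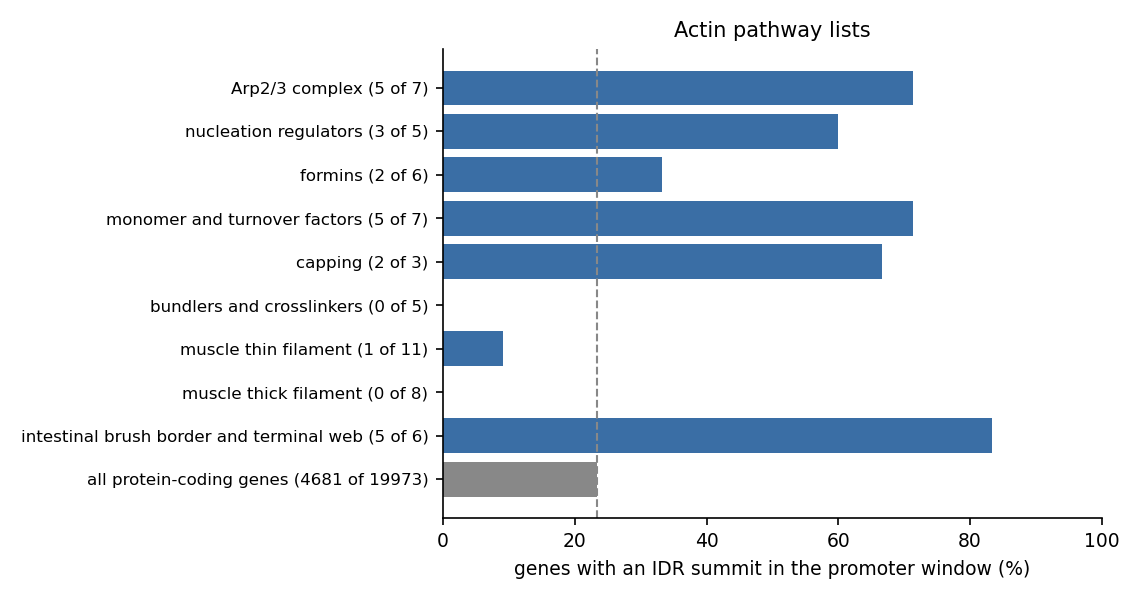
Share of each list of cytoskeleton genes with an IDR summit in the promoter window (horizontal axis, %), with the counts beside each name, and in grey the share of all protein-coding genes, 23.4%, which the dashed line repeats. The brush border list, which includes act-5 and also intermediate filament genes, lies highest with 5 of 6, and the muscle thick filament and bundling lists have none.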

How the data were processed

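The submitters deposited peak lists on ce11 and ce10. Per the manifests deposited with them, relaxed lists were made from each replicate's alignment, or from both pooled, with a control, and the IDR list from the relaxed lists. Programs used to align reads and call peaks are not named in those manifests or labels. The control was not analysed here. Each call has a signal value as deposited, a −log10 q-value from the authors, which is 4.25 for every IDR peak, and a summit position as deposited. Read depth is unknown.

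Positions are on ce11, counted from 1, with genes of Ensembl release 115 and the WBcel235 sequence. All pooled calls lay within its chromosomes. A call was counted with at least 1 bp in the gene span plus 5 kb, and promoter windows by summit. Non-coding genes were not counted among nearest starts. Scripts ran in Python 3.11.15 with pandas 2.3.3, Biopython 1.88 and matplotlib 3.10.9, and the counting was tested on simulated data. Coding sequences were aligned globally. Unique stretches were counted at 36 and 50 bases, since read length is likewise not given. The genes, lists and patterns were chosen with earlier results of these data known. Named genes are the actin genes, those with the start nearest to an IDR peak in an actin window or to the IDR peaks flanking act-4, non-coding genes at a summit, and of each list up to 3 members with the highest promoter peak. The genes flanking act-4 and the non-coding genes, M03F4.6, tmd-2 and eps-8 were named after their values were seen.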

Additional observations from a re-analysis of the deposited data

How the results depend on the processing

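The number of actin genes with an IDR peak in the window was 4 with margins of 2 kb, by summit, by an overlap of at least 50% of the call, by matched calls on ce10, with the 3723 strongest IDR peaks, with the 7446 strongest calls of either replicate alone, and when only peaks nearest to the gene's own start counted, an alternative added after the data were seen. It was 5 with a margin of 10 kb and in the pooled relaxed list. The 10 distinct peaks became 32 in the pooled relaxed list, 6 with the 3723 strongest peaks and 5 when only peaks nearest to an actin start counted, and of these 5 peaks 3 had a GATA site. The 7446 strongest calls of each replicate alone gave 10 to 11 calls, 4 genes by window, 3 by promoter and 20 to 22 genes of the pathway lists. The promoter count of 3 was 4 with 2000 bp upstream, where the peak upstream of act-3 comes in, and 5 in the pooled relaxed list, and the pathway lists had 13 genes with the 3723 strongest peaks and 37 in the pooled relaxed list. Peaks with an AP-1 site were 2 within 100 bp and over the whole call. As a percentage of 7446 calls, the rank of the strongest call in the window was 2.82 for act-1, act-2 and act-3. By rank in the replicates it was 2.85 to 3.37. For act-5 it was 4.14, and 4.23 to 5.94 in the replicates. These calls were the peak upstream of act-2 and the peak in the 5' UTR of shpk-1. In the IDR list the peak next to act-5 stood at 8.8 and that nearest upstream of act-3 at 59.2. No paired analysis was possible because the study has 1 group. Unknown depth, and reads that match several actin genes, limit what a missing call shows.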
